A study of Mus musculus with 9 samples.

Results

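Pdgfra, Pdgfrb, Twist1, Twist2, Prrx1, Thy1, Dpp4 and Fap are genes by which dermal fibroblasts are commonly recognised. These 8 of the 55382 genes measured were chosen by symbol, and all 8 were found in the table and passed the filter on low values. Levels were measured by RNA sequencing in whole mouse skin, in 9 libraries of 3 groups with 3 libraries each. The mice were female C57BL/6 mice, whose age is not given in the sources used here. NORMAL skin came from mice given PBS in place of bleomycin. BLM skin came from the bleomycin model of systemic sclerosis (SSc), in which 100 µL of bleomycin at 1 mg/mL was injected under the shaved back for 28 days. Bleomycin is an anticancer drug that breaks DNA and scars tissue. The sample labels call the treatment of the BLM group none, while the protocol gives these mice PBS after the model was made. EXO skin came from the same model followed by 15 µg of exosomes from bone marrow mesenchymal stem cells (BMSC-EVs), small membrane vesicles shed by these cells, in 100 µL, with a treatment period of 7 days. Libraries are written as group and number (NORMAL1), where 3 stands for the title without a number. Nothing in the labels ties a library to its own mouse, so p-values measure the spread between these libraries, which may be technical in part.

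Dermal fibroblasts make the collagen-rich matrix of the skin and are the main matrix source in fibrosis. PDGF receptors on their surface are tyrosine kinases that drive growth and migration when PDGF dimers bind. TWIST and PRRX proteins are transcription factors that specify mesenchyme in the embryo and stay expressed in dermal fibroblasts. THY1, DPP4 and FAP are cell surface proteins used to sort fibroblast subsets, and DPP4 and FAP are related proteases that cut peptides after proline.

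Values are FPKM, fragment numbers scaled by transcript length and by the depth of the library, so levels of different genes can be compared. Depth was not given and was estimated from the steps among low values as 14.0 M to 28.9 M fragments at the highest frequent step and 8.0 M to 14.0 M at the lowest, so it is open by a factor of up to about 3. The number of genes at 1 FPKM or more was 11238 to 13461. Mitochondrially encoded transcripts took 21.53%, 19.08% and 22.75% of the FPKM in NORMAL (libraries 1, 2 and 3). They took 37.50%, 50.86% and 27.79% in BLM and 18.94%, 34.38% and 18.73% in EXO, so each BLM library lay above each NORMAL library. With mitochondrial pseudogenes the share was 80.9% in BLM2 and at most 36.75% in NORMAL. The 10 skeletal muscle genes took 1.03% to 12.75% of the FPKM in a library. Both classes shift every other FPKM value downwards where they are high. Whole skin was measured, so fewer fibroblasts and less RNA per fibroblast cannot be told apart. Of 12 general fibroblast genes that include the collagens Col1a1 and Col3a1, the dermatopontin gene Dpt and vimentin, 12 were tested and 11 reached 1 FPKM in every library. Their summed level was 237 to 471 FPKM in NORMAL, 160 to 546 FPKM in BLM and 133 to 552 FPKM in EXO, so fibroblast RNA was present in all 3 groups, and the groups overlapped.

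None of the 8 genes differed between groups past the adjusted test, and the spread among libraries of 1 group was large beside most differences between groups. Within libraries, the ratio of Twist1 to Twist2 stayed between 3.18 and 4.30 in 8 of 9. The 8 genes differed widely in level. Thy1 had the highest mean over the 9 libraries, 13.5 FPKM, above 79.5% of the 14254 genes tested. Twist1 followed with 8.87 FPKM and then Prrx1 with 4.03 FPKM, Dpp4 with 3.91 FPKM, Pdgfrb with 2.62 FPKM and Twist2 with 2.20 FPKM. Fap, with 1.56 FPKM, and Pdgfra, with 1.21 FPKM, were lowest, and Pdgfra lay above 10.5% of the genes tested. Of neighbours in this order, only Twist1 and Prrx1 kept their places in 9 of 9 libraries (mean log2 ratio 1.22, SD 0.77). Thy1 was above Twist1 in 7 of 9 (mean log2 ratio 0.65, SD 1.02), Prrx1 above Dpp4 in 6 of 9 and Pdgfrb above Twist2 in 4 of 9, so the order of these and the other neighbours was not fixed beyond the spread. Counts behind the lowest values were small, an estimated 25 fragments for Twist2 in EXO3, 32 for Fap in EXO3 and 57 for Pdgfra in EXO1 at the higher depth estimate. The summed level of the 8 genes was 27.77, 45.71 and 52.57 FPKM in NORMAL (libraries 1, 2 and 3, an order kept from here on), 29.26, 40.50 and 48.07 FPKM in BLM, and 24.13, 44.16 and 28.57 FPKM in EXO. All 3 groups overlapped.

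**Figure D1:**
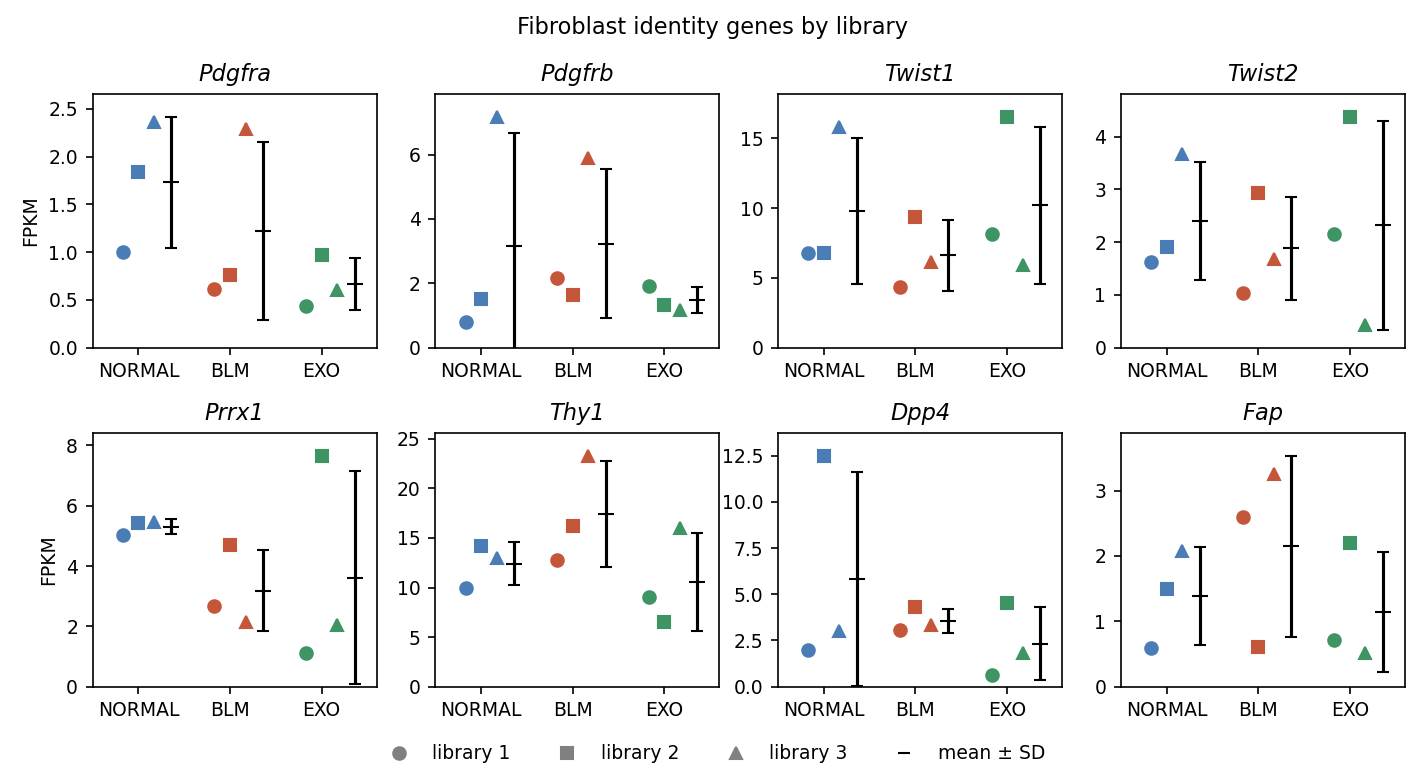
FPKM of the 8 genes (y axes from 0, one scale per gene) in the 9 libraries; symbols mark the library number, and the bars give mean ± SD of the 3 libraries of a group, cut at 0 for Pdgfrb. For Prrx1 the 3 BLM libraries (up to 4.70 FPKM) lie below the 3 NORMAL libraries (from 5.02 FPKM), and for Pdgfra the 3 EXO libraries (up to 0.97 FPKM) lie below NORMAL (from 1.00 FPKM).

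Twist1 and Twist2 encode near relatives of the basic helix-loop-helix class that bind the E-box, CANNTG, together with E proteins. In these libraries the levels of the pair varied together, so the RefSeq promoters of both genes are shown first (GRCm38.p6, 250 bases before the start site, 5′ to 3′). Twist1 lies at chr12:33957421-33957670 on the plus strand and Twist2 at chr1:91801211-91801460 on the plus strand. Capitals mark the TATA box letters TATAAA, the GC box letters GGGCGG and the CCAAT box letters CCAAT, searched on both strands, so that CCGCCC is the GC box read on the other strand.
Twist1: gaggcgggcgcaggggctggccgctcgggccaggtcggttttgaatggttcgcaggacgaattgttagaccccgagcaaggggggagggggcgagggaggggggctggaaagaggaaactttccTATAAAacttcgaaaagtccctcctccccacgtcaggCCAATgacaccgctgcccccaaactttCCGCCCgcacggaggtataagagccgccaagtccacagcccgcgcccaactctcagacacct
Twist2: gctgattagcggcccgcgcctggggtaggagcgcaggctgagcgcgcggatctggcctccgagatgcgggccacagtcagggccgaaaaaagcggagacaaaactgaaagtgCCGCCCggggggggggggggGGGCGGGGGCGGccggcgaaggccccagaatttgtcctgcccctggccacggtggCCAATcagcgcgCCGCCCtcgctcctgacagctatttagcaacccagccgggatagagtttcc
The Twist1 window holds 1 TATA box at base -126 from the start site, 1 GC box and 1 CCAAT box, and the Twist2 window holds 4 GC boxes, of which those at -118 and -112 are adjacent, and 1 CCAAT box. Of all 32851 RefSeq promoters of this length, 12.4% hold the TATA box letters, 32.7% the GC box letters and 33.8% the CCAAT box letters. The E-box letters, held by 66.2% of promoters, were not in either window. GC content was 62.4% in the Twist1 window and 68.8% in the Twist2 window.

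Twist1 (ENSMUSG00000035799, chr12:33957671-33959829, plus strand, GRCm38) had 6.75, 6.81 and 15.83 FPKM in NORMAL. It had 4.32, 9.34 and 6.17 FPKM in BLM and 8.12, 16.55 and 5.93 FPKM in EXO. EXO2 and NORMAL3 were highest and BLM1 lowest, and all 3 groups overlapped. The log2 change of FPKM + 1 was -0.46 (SE 0.48) for BLM against NORMAL and 0.50 (SE 0.48) for EXO against BLM. Twist2 (ENSMUSG00000007805, chr1:91801461-91848028, plus strand) had 1.62, 1.90 and 3.68 FPKM in NORMAL, 1.03, 2.94 and 1.68 FPKM in BLM and 2.15, 4.38 and 0.43 FPKM in EXO. The same EXO2 and NORMAL3 were highest, while the lowest value lay in EXO3, and its log2 changes were -0.24 (SE 0.50) and 0.06 (SE 0.50). Twist1 was 3.18 to 4.30 times Twist2 in 8 libraries and 13.8 times Twist2 in EXO3, where an estimated 25 fragments lay behind the Twist2 value. The mean log2 ratio of Twist1 to Twist2 was 2.14 with an SD of 0.63 over 9 libraries and 1.93 without EXO3. Over the 9 libraries the levels of the pair had a Pearson r of 0.88 and a Spearman rho of 0.97, and r was 0.93 after group means were removed. These points share library and depth, so the values are a description. The transcripts of both genes align over 317 nt at 87.7% identity, with a longest identical run of 23 nt.

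Prrx1 encodes a paired-related homeobox factor of limb and craniofacial mesenchyme and dermis. Prrx1 (ENSMUSG00000026586, chr1:163245119-163313710, minus strand) was tight in NORMAL, at 5.02, 5.42 and 5.47 FPKM, and lower in BLM, at 2.69, 4.70 and 2.14 FPKM. EXO spread widely, at 1.13, 7.66 and 2.06 FPKM. All BLM libraries lay below all NORMAL libraries, while EXO2 exceeded the other 8 libraries. Changes are given on the log2(FPKM + 1) scale, which understates those of low genes. The fitted log2 change was -0.64 with an SE of 0.51 (95% interval -1.76 to 0.47) for BLM against NORMAL, with an adjusted p of 0.874 in limma with Benjamini-Hochberg adjustment. Rescaled without mitochondrial, ribosomal RNA and muscle transcripts, this change was -0.311 with an SE of 0.554. Of all 14254 genes tested, 7.52% were lower in all BLM than in all NORMAL libraries, and the 1 member of 8 is not a result about the members. In EXO against NORMAL the log2 change of Prrx1 was -0.72 with an SE of 0.51, and -1.30 without EXO2, where it passed the study's thresholds (an absolute log2 change over 1 with unadjusted p under 0.05) but not the adjusted test.

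Pdgfra and Pdgfrb encode the alpha and beta PDGF receptors, of which the alpha receptor is the usual marker of dermal fibroblasts and the beta receptor is also made by pericytes. Pdgfra (ENSMUSG00000029231, chr5:75152292-75198215, plus strand) had 1.00, 1.84 and 2.36 FPKM in NORMAL, 0.61, 0.76 and 2.29 FPKM in BLM and 0.44, 0.97 and 0.60 FPKM in EXO. BLM3 alone of the BLM libraries reached the NORMAL range, and all EXO libraries lay below all NORMAL libraries, at 0.97 FPKM against 1.00 FPKM where they came nearest. The log2 change for EXO against NORMAL was -0.69 with an SE of 0.37, and the adjusted p was 0.997 (limma). Of all genes tested, 0.989% were lower in all EXO than in all NORMAL libraries. Pdgfrb (ENSMUSG00000024620, chr18:61045150-61085061, plus strand) had 0.80, 1.52 and 7.18 FPKM in NORMAL, 2.16, 1.64 and 5.88 FPKM in BLM and 1.92, 1.34 and 1.17 FPKM in EXO. NORMAL3 and BLM3 stood high in Pdgfrb and Pdgfra alike, and the remaining 7 libraries spanned 0.80 to 2.16 FPKM in Pdgfrb. Pdgfrb was above Pdgfra in 7 of 9 libraries, and NORMAL1 and NORMAL2 were the exceptions. The pair had a Pearson r of 0.70 and a Spearman rho of 0.33. The pericyte list, in which Des, a gene muscle also uses, took the largest share, summed to 351 to 1135 FPKM in NORMAL, 198 to 371 FPKM in BLM and 212 to 1467 FPKM in EXO. Its Notch3, a receptor of mural cells, had 3.26, 1.68 and 10.64 FPKM in NORMAL, 11.20, 3.42 and 10.92 FPKM in BLM and 7.59, 6.39 and 10.15 FPKM in EXO. Des alone had 1080.23, 660.19 and 213.61 FPKM in NORMAL and 306.35, 160.2 and 132.6 FPKM in BLM. Of 9 tested pericyte genes, 5 had higher and 4 lower fitted values in BLM than in NORMAL (median log2 change 0.068). The part of pericytes in Pdgfrb was not tested. Pdgfrb had a log2 change of 0.21 (SE 0.57) for BLM against NORMAL and -0.65 (SE 0.57) for EXO against BLM.

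**Figure D2:**
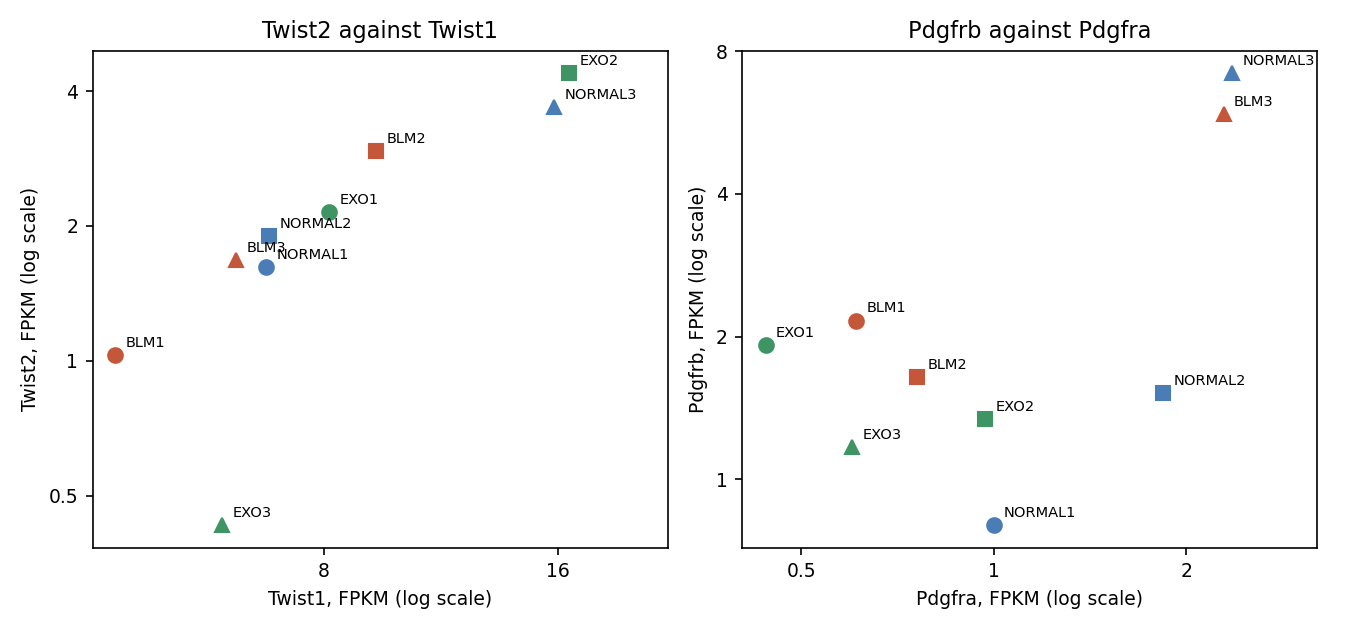
Twist2 against Twist1 and Pdgfrb against Pdgfra, FPKM on log scales, 1 point per library. Twist2 follows Twist1 in 8 libraries and EXO3 stands apart at 0.43 FPKM of Twist2; in the other panel NORMAL3 and BLM3 stand apart.

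The PDGF ligands are the partners of these receptors. PDGF-A binds the alpha receptor and PDGF-B binds both. Of 4 ligand genes, 3 were tested and 0 passed the test in any comparison, in either direction. Pdgfa had 7.29 ± 1.77 FPKM in NORMAL, 6.84 ± 3.75 FPKM in BLM and 10.8 ± 1.34 FPKM in EXO (mean ± SD, n = 3), and Pdgfb had 4.90 ± 2.24, 4.92 ± 1.22 and 7.18 ± 1.41 FPKM. The 3 ligands had a median log2 change of 0.64 for EXO against BLM, beside 0.22 over all genes tested.

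Thy1, Dpp4 and Fap encode surface proteins. Thy1 (ENSMUSG00000032011, chr9:44043384-44048579, plus strand), a GPI-anchored glycoprotein of fibroblasts that T cells and neurons also carry, had 9.98, 14.22 and 12.98 FPKM in NORMAL, 12.80, 16.22 and 23.31 FPKM in BLM and 9.01, 6.54 and 16.05 FPKM in EXO. BLM3 was highest and EXO2 lowest, and each pair of groups overlapped. Its log2 change for EXO against BLM was -0.72 with an SE of 0.41 (95% interval -1.63 to 0.18) and an adjusted p of 0.781 (limma). Rescaled without mitochondrial, ribosomal RNA and muscle transcripts it was -1.09, past the study's thresholds but not the adjusted test. Of 8 T cell genes, 7 were at 0 in at least 1 library, and the list summed to 0.50 to 10.72 FPKM. Cd3g, a subunit of the T cell receptor complex, reached 4.15 FPKM and the T cell kinase gene Lck 2.18 FPKM, both in BLM3, where Thy1 was also highest. Over the 9 libraries, Thy1 had a Pearson r of 0.139 (Spearman -0.067) with the mean of the T cell list. Pdgfrb had an r of 0.754 and Fap 0.713 with the same list. The part of T cells in Thy1 was not tested. Dpp4 (ENSMUSG00000035000, chr2:62330073-62412231, minus strand), a serine protease that marks fibroblast progenitors of the fascia, had 2.01, 12.51 and 3.00 FPKM in NORMAL, 3.06, 4.30 and 3.34 FPKM in BLM and 0.65, 4.53 and 1.82 FPKM in EXO. NORMAL2 stood far above the other 8 libraries, and the log2 change for BLM against NORMAL turned from -0.27 (SE 0.60) to 0.39 without it. NORMAL2 was also the library with 11.04% of its FPKM in ribosomal RNA, and the part of this in Dpp4 was not tested. Fap (ENSMUSG00000000392, chr2:62500943-62574075, minus strand), a marker of activated fibroblasts, had 0.59, 1.49 and 2.07 FPKM in NORMAL, 2.59, 0.60 and 3.26 FPKM in BLM and 0.71, 2.19 and 0.51 FPKM in EXO. BLM1 and BLM3 were highest, but BLM2 was near the lowest NORMAL library. Fap had a log2 change of -0.52 (SE 0.47) for EXO against BLM, and -1.28 without the libraries numbered 2, past the study's thresholds but not the adjusted test. Dpp4 and Fap lie close together on chromosome 2, and the ratio of Dpp4 to Fap ranged from 0.915 in EXO1 to 8.40 in NORMAL2.

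No member passed the test in any comparison. The test asked which genes differed between groups in limma on log2(FPKM + 1), at an adjusted p of 0.05 over 14254 genes. For BLM against NORMAL, 0 of 8 members were called, beside 0.0140% of all genes tested. None passed the study's thresholds either, which 5.90% of all genes passed. In EXO against BLM, 0 of 8 members were called beside 0.0140% of genes, and 0 passed the study's thresholds beside 5.30%. In EXO against NORMAL, 0 of 8 were called beside 0.00%, and 0 passed the study's thresholds beside 1.71%. At an unadjusted p below 0.05, 0 of 8 members passed in each comparison of the main fit, and 1050, 975 and 332 of all genes did. Without the replicate block, the 24 intervals of the log2 changes were 1.62 to 2.62 wide, all held 0, and all 24 reached beyond 1 or below -1. Each interval thus reached past a log2 change of 1 in at least 1 direction, and these data do not show that levels were equal. With the replicate block, 3 of 24 intervals lay below 0, and none was called (limma). They were those of Thy1 for EXO against BLM (-1.44 to -0.004, adjusted p 0.322) and of Pdgfra (-1.34 to -0.04, adjusted p 0.656) and Dpp4 (-1.72 to -0.06, adjusted p 0.656) for EXO against NORMAL. At an unadjusted p below 0.05 in that limma fit, 1 of 8 members passed for EXO against BLM, beside 2205 of 14254 genes. For EXO against NORMAL 2 members passed beside 1083 genes, and for BLM against NORMAL 0 members beside 2185 genes.

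**Figure D3:**
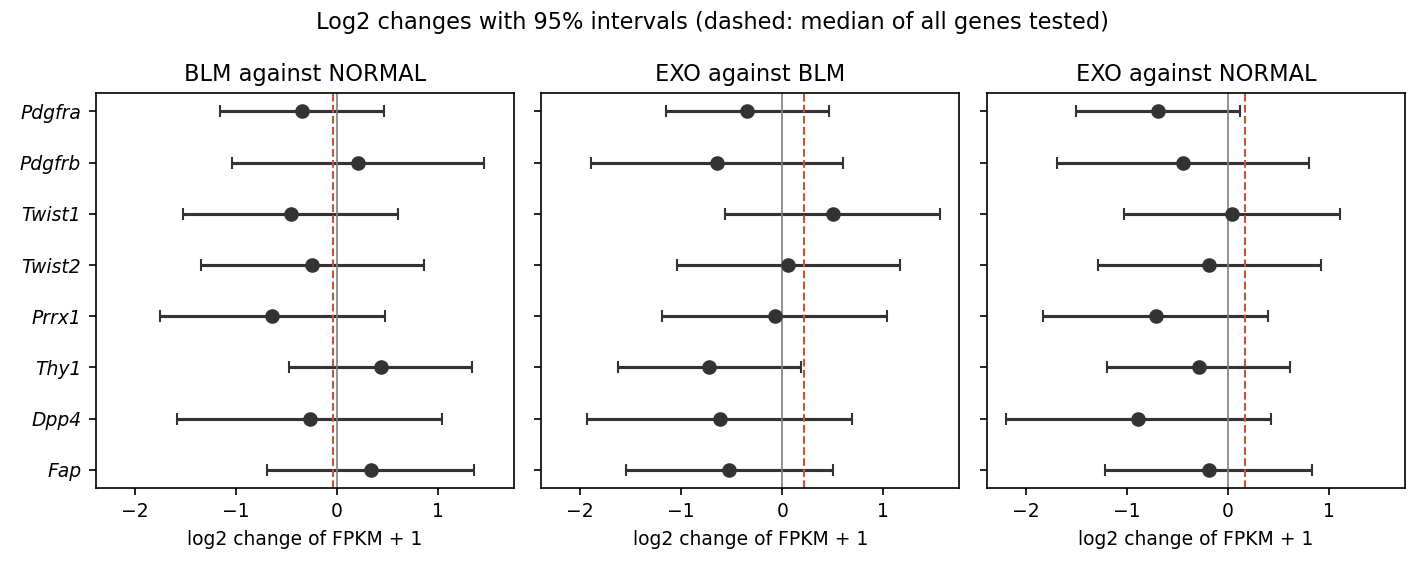
Log2 change of FPKM + 1 for each of the 8 genes in 3 comparisons, with 95% intervals from limma; the dashed line is the median change of all genes tested. All 24 intervals cross 0.

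Fitted values leaned towards lower levels. For BLM against NORMAL, 3 members had higher and 5 lower fitted values, with a median log2 change of -0.26 beside -0.03 over all genes tested. In EXO against BLM, 2 were higher and 6 lower (median -0.44 beside 0.22), and for EXO against NORMAL, 1 was higher and 7 lower (median -0.36 beside 0.17). Each pair of comparisons shares a group, and none of these values passed the adjusted test. Fitted values of keratinocyte genes leaned the other way, with 7 of 7 higher in EXO than in BLM (median 1.57) and 7 of 7 higher in EXO than in NORMAL (median 1.15), and the list summed to 1072 to 8625 FPKM in NORMAL, 1038 to 4275 FPKM in BLM and 6728 to 11770 FPKM in EXO. For BLM against NORMAL, 6 of 7 keratinocyte genes were lower (median -0.31). Of 10 skeletal muscle genes, 9 had higher fitted values in EXO than in BLM (median 0.98). However, 8 of these muscle genes were lower in EXO than in NORMAL (median -0.901), and all 10 were lower in BLM than in NORMAL (median -1.852). General fibroblast genes leaned as the members did in the comparisons with EXO, with 8 of 12 lower in EXO than in BLM (median -0.349). Against NORMAL, 8 of 12 were lower in EXO (median -0.575). For BLM against NORMAL they did not lean, with 6 higher and 6 lower (median 0.055). In EXO against BLM, 7 of 7 endothelial, 7 of 8 adipocyte and 6 of 8 macrophage genes were lower. For EXO against NORMAL, 7 of 8 macrophage genes were lower, while 6 of 7 endothelial and 7 of 8 adipocyte genes were higher. The part of these cell types in the members' values was not tested. Over the 21 other settings that tested at least 7 members, the number of members higher ranged from 2 to 5 for BLM against NORMAL, from 1 to 3 for EXO against BLM and from 0 to 4 for EXO against NORMAL. The filter at 5 FPKM tested 3 members, of which 1 was higher in each comparison. Rescaling without mitochondrial, ribosomal RNA and muscle transcripts gave the 5 of 8 for BLM against NORMAL, and leaving out NORMAL3 gave the 4 of 8 for EXO against NORMAL. Between groups that did not overlap, 1 of 8 members, Prrx1, was lower in BLM than in NORMAL, beside 7.52% of all genes, and none was higher, beside 2.87%. Without overlap, 0 members were higher or lower in EXO than in BLM, beside 11.4% and 2.66% of all genes. Between EXO and NORMAL, 1 was lower, Pdgfra, beside 0.989% of all genes, and none was higher, beside 4.58%.

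The transcription factors that partner or oppose TWIST were listed as well. Of 7 genes, 6 were tested: the E proteins Tcf3 and Tcf12, with which TWIST dimerises, and Id1, Id2, Id3 and Id4, which sequester E proteins. Of these 0 passed in any comparison, and for BLM against NORMAL 5 were higher and 1 lower, with a median log2 change of 0.19. Of 12 other mesenchymal transcription factors, 10 were tested and 0 passed the adjusted test. For BLM against NORMAL 4 were higher and 6 lower, with a median of -0.36. Tbx15, a T-box factor of dermis and muscle, had 48.74, 33.13 and 14.84 FPKM in NORMAL and 11.47, 10.95 and 10.20 FPKM in BLM, a log2 change of -1.34 with an adjusted p of 0.61 (limma). It and Meox1, chosen after its values were seen and higher in BLM by a log2 change of 1.01, passed the study's thresholds. Of 6 relatives of Dpp4 and Fap, 4 were tested and 0 passed in any comparison.

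Markers of fibroblast states were measured beside the members. Of 9 tested activated fibroblast genes, 0 were called in any comparison, and for BLM against NORMAL 6 were higher and 3 lower, with a median log2 change of 0.75 beside -0.03 over all genes. The 1 gene past the study's thresholds there was Tagln, a smooth muscle and myofibroblast actin-binding protein, with 1.35, 2.57 and 16.46 FPKM in NORMAL and 16.89, 29.35 and 42.60 FPKM in BLM, and an adjusted p of 0.429 (limma). In EXO against BLM, 3 passed them: Postn, a matricellular protein, was higher, at 47.17, 60.56 and 94.87 FPKM in EXO against 17.22, 7.76 and 21.21 FPKM in BLM, and Acta2, smooth muscle actin, was lower, at 10.33, 16.44 and 6.19 FPKM against 18.98, 37.97 and 47.56 FPKM. The other was Lrrc15, lower by a log2 change of -1.84 and chosen after its values were seen. Fap, the member that marks the same state, gave a log2 change of 0.34 with an SE of 0.47 for BLM against NORMAL. Over the 9 libraries, the mean of the activated list had its highest Pearson r with Pdgfrb, 0.83, beside 0.57 with Fap. Its lowest was -0.21 with Dpp4. Of 7 tested dermal papilla genes, those of the mesenchyme within the hair bulb, all 7 had higher fitted values in BLM than in NORMAL (median 0.88), Sox18, Alpl and Vcan passed the study's thresholds and 0 were called. Vcan was chosen after its values were seen. Of 9 growing hair follicle genes, given beside this list, all 9 had higher fitted values in BLM than in NORMAL (median 3.03), and the list summed to 4.49 to 210 FPKM in NORMAL, 159 to 790 FPKM in BLM and 13.1 to 21.1 FPKM in EXO. NORMAL3 alone gave the 210 FPKM, beside 10.04 in NORMAL1 and 4.49 in NORMAL2. Of these genes, 6 passed the study's thresholds and 1 was called, Shh, a signalling protein of the follicle epithelium chosen after its values were seen (adjusted p 0.029, limma). In EXO against BLM all 9 were lower (median -3.39), 6 passed the study's thresholds and Shh was called (adjusted p 0.0268, limma). Of the 7 dermal papilla genes, 5 were lower and 2 higher in EXO than in BLM (median -0.81), and 3 passed those thresholds. The part of the hair follicle in the dermal papilla values was not tested. Of 6 tested reticular and fascial genes, 1 was higher and 5 lower in BLM (median -0.77) and 0 were called. Of 8 tested papillary genes, 6 were higher and 2 lower (median 0.59) and 0 were called. With the replicate block 1 was called, the Wnt inhibitor Wif1 (adjusted p 0.044, limma), chosen after its values were seen. Of 8 macrophage genes, all 8 had lower fitted values in BLM (median -0.60) and 0 were called, and the list summed to 187 to 383 FPKM in NORMAL, 84.7 to 359 FPKM in BLM and 49.5 to 398 FPKM in EXO.

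Members varied together in some pairs and apart in others. Of the 28 pairs, Twist1 and Twist2 had the highest r, and Twist1 and Thy1 the lowest, -0.48 (Spearman -0.35). Prrx1 had an r of 0.65 with Dpp4, 0.59 with Twist1 and 0.61 with Twist2, while Pdgfrb had an r of 0.65 with Fap. Without the libraries numbered 2, the r of Twist1 and Twist2 was 0.825, no longer the highest beside 0.829 for Pdgfra and Pdgfrb, and that of Dpp4 and Fap rose from 0.36 to 0.76. Among 6703 genes with a mean of at least 5 FPKM, those most like each member over the 9 libraries are named here, with nothing said of shared function or control. Twist2 was nearest to Pltp, a phospholipid transfer protein (r 0.96), to Lyz2, lysozyme of macrophages (r 0.95), and to Selenom (r 0.95). Twist1 was nearest to Rab31, a vesicle trafficking GTPase (r 0.96), Selenop and Kctd10, and Prrx1 to Pygo2, a Wnt pathway co-factor (r 0.96), Gda and Sh3bgrl. Pdgfrb was nearest to Pmepa1, an inhibitor of TGF-β signalling (r 0.98), Tcf7l1 and Car6, and Pdgfra to Sdf2l1, an endoplasmic reticulum protein (r 0.94), and the complement genes C1s1 and C4b. Dpp4 was nearest to Gm15542 (r 0.98), Ube2n-ps1 and Gm12543, which like Dpp4 were highest in NORMAL2. Fap was nearest to the ribosomal protein gene Rpl26 (r 0.97), Rpl38-ps2 and Ccdc12, and Thy1 to Ptp4a1, Hmgn2 and Tnpo2 (r at most 0.84). The mean of the general fibroblast list had an r of 0.84 with Pdgfra, 0.663 with Pdgfrb, 0.655 with Fap and 0.639 with Twist2. Its r was 0.553 with Twist1, 0.46 with Prrx1, 0.441 with Dpp4 and 0.203 with Thy1. The mean of the macrophage list had an r of 0.87 with Twist2 and 0.79 with Prrx1. Twist2 had a higher r, 0.93, with the other mesenchymal transcription factors, and Prrx1 had an r of 0.78 with the reticular and fascial list and 0.73 with the other mesenchymal transcription factors. These are descriptions of 9 libraries that share depth and makeup, and the part of macrophages in the values of Twist2 and Prrx1 was not tested.

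**Figure D4:**
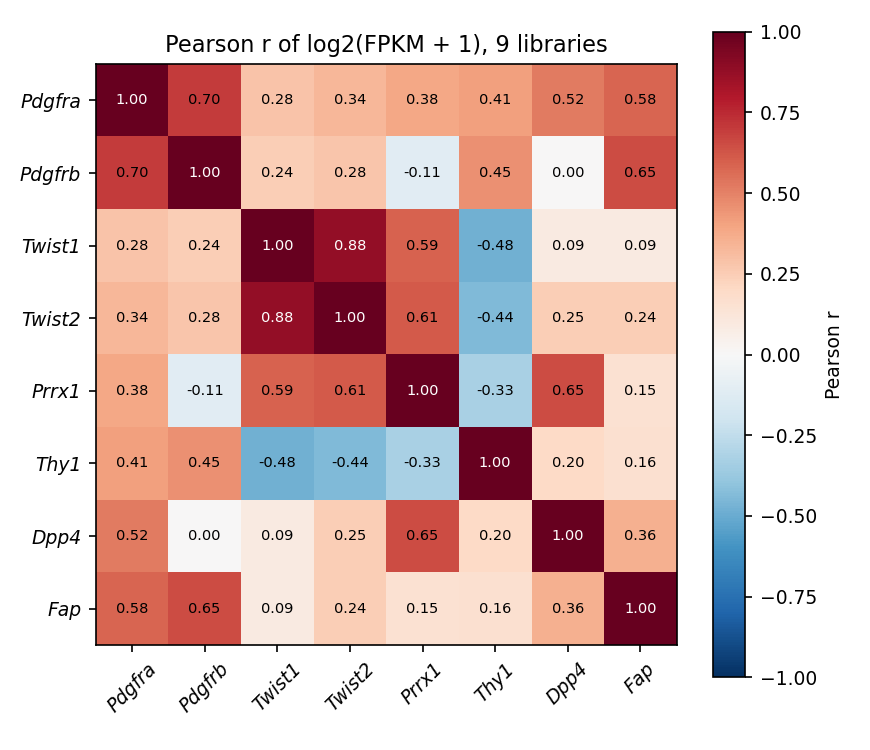
Pearson r of log2(FPKM + 1) over the 9 libraries for each pair of the 8 genes (colour and number in each cell, diagonal 1). The Twist1 and Twist2 cell is highest at 0.88 and the Twist1 and Thy1 cell lowest at -0.48.

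Genes that overlap a member could take or add reads where strand was not used in counting, and no strand setting is given in the sources used here. Inside Twist2, Gm29101 on the same strand had 0.00 to 1.45 FPKM. The antisense gene Gm29100 shares 1468 nt with Twist2 and reached 0.11 FPKM. Opposite Pdgfra, Gm42803 reached 1.11 FPKM, and antisense genes of Pdgfra, Prrx1 and Dpp4 reached 0.18 FPKM at most.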

How the data were processed

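Whole skin RNA of female C57BL/6 mice had been made into strand-specific poly(A) libraries and sequenced in pairs. The FPKM values were deposited by the authors in 1 table of 55382 genes and 9 libraries. Per the submitters' processing notes, cutadapt (version not given), HISAT2 2.0.4 and StringTie 1.3.4d were used with the build mm9. No annotation release, strand setting or filter is given in the sources used here. FPKM is relative to each library's own total, so abundant classes push other values down. Groups came from the sample labels. Of the identifiers, 99.56% stand in GENCODE M21 (GRCm38), the source of the member coordinates.

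Log2(FPKM + 1) values of 14254 genes with at least 1 FPKM in at least 3 libraries entered 1 limma 3.58.1 fit (R 4.3.3) over all 9 libraries with a mean-variance trend. P-values were adjusted by Benjamini and Hochberg and called at 0.05. The study's thresholds were a log2 change past 1 and an unadjusted p under 0.05. Tests are two-sided. The fit was tested on simulated data. The table gives no counts, so no count test was run. Depth was estimated from steps among low values and limits the precision of values near 1 FPKM. Alternatives were other scalings, pseudocounts, filters, the replicate block and leaving out libraries. The rescaling without mitochondrial transcripts also left out 16 mitochondrial pseudogenes. Deviations from group means correlated at 0.173 to 0.679 between libraries of equal number (9 pairs) and at -0.547 to 0.203 between the rest (18 pairs). Libraries of equal number thus tended to vary together, but the ranges overlapped and the labels give no pairing. Deviations from a group mean cancel out within the group, which pushes the values of the rest down.

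The 8 members and all lists were chosen with earlier results of these data known. Beside the members, up to 4 genes of a list with the highest mean FPKM are named, with the 3 genes most like each member by Pearson r. Promoters are from RefSeq (GRCm38.p6), which matched 5 of 8 members. Transcripts were compared with BLAST. Python 3.11.15 and pandas 2.3.3 were used.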

Additional observations from a re-analysis of the deposited data

How the results depend on the processing

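No member was called under any of the 22 settings, in any comparison. The smallest adjusted p of a member was 0.237 for BLM against NORMAL, 0.198 for EXO against BLM and 0.48 for EXO against NORMAL. The number of members past the study's thresholds was 0 in 59 of 66 alternative results. For EXO against BLM it was 1 under quantile normalization, rescaling without mitochondrial, ribosomal RNA and muscle transcripts, the same rescaling with the replicate block, and leaving out the libraries numbered 2, and 0 to 1 when single libraries were left out. The gene was Fap without the libraries numbered 2 (log2 change -1.28) and Thy1 otherwise (-1.001 to -1.086). For EXO against NORMAL it was 1, Prrx1, without the libraries numbered 2 (-1.29) and 0 to 1 when single libraries were left out (-1.30 without EXO2). The cause was not tested. The filter at 5 FPKM tested only 3 members.

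The replicate block pairs libraries of equal number, which the labels do not give as pairs. It called 60 genes for BLM against NORMAL against 2 without it, 11 against 2 for EXO against BLM and 3 against 0 for EXO against NORMAL. It changed the call of no member.

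Of 512 alternative log2 changes of members, 34 turned direction, none of them called. For BLM against NORMAL, rescaling without mitochondrial, ribosomal RNA and muscle transcripts, with or without the block, gave 0.043 for Twist2 and 0.061 for Dpp4, and leaving out the libraries numbered 2 gave 0.28 for Dpp4. For EXO against BLM, Twist2 was -0.032 under quantile normalization, -0.13 under median-ratio scaling, -0.22 under that rescaling with or without the block, -0.065 with a pseudocount of 0.1 and -0.14 without the libraries numbered 2, and Prrx1 was 0.16 when rescaled to the same total. For EXO against NORMAL, Twist1 was -0.15 under quantile normalization, -0.20 under median-ratio scaling and -0.52 without the libraries numbered 2, where Thy1 was 0.076. Leaving out single libraries, ranges that crossed 0 were -0.24 to 0.86 for Pdgfrb, -0.50 to 0.011 for Twist2 and -0.70 to 0.39 for Dpp4 for BLM against NORMAL. They were -0.39 to 0.57 for Twist2 and -0.66 to 0.35 for Prrx1 for EXO against BLM. For EXO against NORMAL they were -0.89 to 0.21 for Pdgfrb, -0.34 to 0.41 for Twist1, -0.63 to 0.32 for Twist2 and -0.52 to 0.023 for Fap. Depth limits Twist2, Fap and Pdgfra most, since few fragments lie behind their lowest values.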
